A study of Homo sapiens with 6 samples.

Results

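The transcriptome of HLE cells that carried the ZNF281 short hairpin RNA (shRNA) kd.2 was compared with that of HLE cells that carried a control shRNA. HLE is an established human line labelled as hepatocellular carcinoma. Both lines were made with lentivirus at a multiplicity of infection of 10 and kept in puromycin for 7 days, so the controls carry the vector and the selection too. A second ZNF281 line, kd.1, whose shRNA targets another coding site, serves only as a side check. Each line gave 2 libraries of total RNA, so the comparison is 2 against 2 with the spread estimated over all 6, and the labels do not say that duplicates came from separate cultures. What the p-values measure is therefore how far these libraries scatter, and that scatter may be technical. The labels give 1 line per shRNA and do not say whether a line is a pool or a clone, so a trait of the line and an effect of its shRNA cannot be told apart. All 19503 named genes were considered, and the 10851 that reached 1 FPKM in at least 2 libraries were tested.

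ZNF281 is a zinc-finger transcription factor that binds GC-rich DNA. In other cells it is known as a partner of the NuRD histone deacetylase complex and of MYC, as a regulator of pluripotency genes, and as an inducer of mesenchymal genes in carcinoma cells. The comparison asks which genes and programmes differ once its transcript is lowered in this line.

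The targeted transcript was lower in both kd.2 libraries. ZNF281 read 9.52 and 8.43 FPKM in the control and 4.37 and 4.47 in kd.2 (log2 change -1.0 ± 0.09, adjusted p = 0.00024, limma). The kd.2 pair lay below both controls without overlap, at about the level of kd.1 (difference between the lines -0.03 ± 0.09, adjusted p = 0.805). Here and below, levels are FPKM (fragments scaled to transcript length and library total), changes are differences of log2(FPKM + 0.1) ± SE from limma, which understate the change of low genes, and p-values are Benjamini-Hochberg adjusted over all 10851 genes. A gene is said to have risen or fallen at an adjusted p under 0.05. In bulk RNA, fewer cells that express a gene and less RNA per cell cannot be told apart. ZNF148, the paralog of ZNF281, read 5.53 and 4.74 FPKM in the control and 6.67 and 6.56 in kd.2 (log2 change 0.36 ± 0.09, adjusted p = 0.0173). Its call did not hold without kd.2 replicate 1 or 2 (adjusted p = 0.113 and 0.0943). The kd.2 pair lay above both controls, but the change shrank to 0.14, adjusted p = 0.109 once the transcript length trend described next was removed. ANXA10, an annexin that binds calcium and phospholipid, rose from near the floor (0.23 and 0.18 to 1.15 and 0.94 FPKM). It was higher still in kd.1, at 3.18 and 3.56 FPKM (kd.2 minus kd.1 -1.6 ± 0.16, adjusted p = 0.000212, limma). ANXA10 reached 1 FPKM only in knockdown libraries. It thus passed the filter only through libraries where it is high, and its tests are no independent support.

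The 2 control libraries differ from each other by transcript length. Across genes, the log2 difference between duplicates had an SD of 0.245 in the control, against 0.137 in kd.2 and 0.147 in kd.1. Control replicate 2 stood above replicate 1 by a median of 0.212 log2 in the shortest of 10 equal groups of genes by length, against a median of -0.194 in the longest. The kd.2 duplicates differed by a median of -0.014 and 0.045 in the same groups. The kd.2 against control difference ran the other way, from a median of -0.231 in the shortest group to 0.154 in the longest, and against control replicate 1 alone from -0.122 to 0.064. In the shortest group 42.6% of genes were called down and 3.07% up, and in the longest 8.57% and 29%. Between kd.2 and kd.1, which does not use the controls, the medians ran from -0.091 to -0.003. The programmes below are therefore also given with a trend on transcript length and GC content removed from every library, a choice made after the data were seen.

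**Figure D1:**
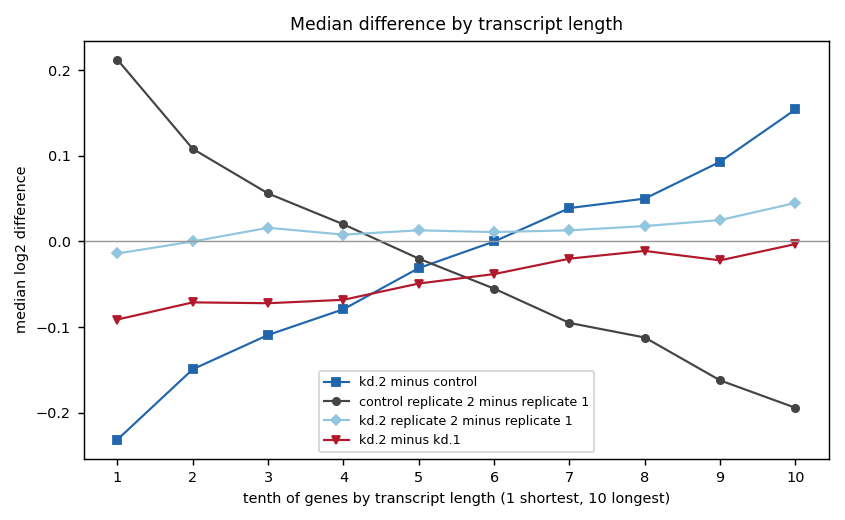
Median log2 difference (vertical axis) of genes in 10 equal groups by transcript length (horizontal axis, 1 shortest, 10 longest) for kd.2 minus control, replicate 2 minus replicate 1 of the control and of kd.2, and kd.2 minus kd.1. The control duplicates slope from 0.212 to -0.194 and kd.2 minus control slopes from -0.231 to 0.154, while kd.2 minus kd.1 stays between -0.091 and -0.003.

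Cell type markers were read in the 4 control and kd.2 libraries. The keratins KRT8 and KRT18 of simple epithelia were abundant, and the summed simple epithelial markers ranged from 2162 to 2494 FPKM, although CDH1 and EPCAM of that list read at most 0.06 FPKM. Of the hepatocyte markers in the table, SERPINA1 alone passed 1 FPKM and the sum was 2.36 to 3.36 FPKM, near 0 next to the keratins. Of a longer list of 36 hepatocyte genes 6 were tested, and its sum of 279 to 345 FPKM was almost wholly CPS1, the first enzyme of the urea cycle, which read 291 and 260.3 FPKM in the control and 312 and 327 in kd.2. The fibroblast list summed to 232 to 285 FPKM, almost wholly the proteoglycans LUM and DCN, with COL1A2 at 0 to 0.01 FPKM. Endothelial, erythroid and neuronal markers each summed to at most 3.07 FPKM, and the single tested endothelial and neuronal markers, CDH5 and SNAP25, fell (-1.38 and -0.98 log2). Outside the controls CDH5 reached 1 FPKM only in kd.1 replicate 2 (1.01). It thus passed the filter only through the controls, where it is high, and its fall is no independent support. The leukocyte list summed to 22.3 to 32.9 FPKM, nearly all CD68, and PTPRC read at most 0.07. Mesothelial-type markers summed to 71.2 and 81.1 FPKM in the control and 43.6 and 46.8 in kd.2, and all 3 tested members (MSLN, UPK3B and CALB2) fell. Squamous keratinocyte markers summed to 20.8 to 30.4 FPKM, nearly all KRT10.

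In kd.2, 1705 genes rose (15.7% of those tested) and 2405 fell (22.2%), with median changes of 0.37 and -0.41. All of them had kd.2 and control libraries that did not overlap. A call with 2 libraries a group nearly requires this, so it is no added support. Large changes were few: 31 risen and 133 fallen genes moved by more than 1 log2 unit, and 0 and 10 by more than 2. Without control replicate 1, 2847 rose and 3328 fell, and without control replicate 2, 1661 and 2393. Without kd.2 replicate 1, 466 rose and 816 fell, and without kd.2 replicate 2, 492 and 989. The split between risen and fallen depends on the scaling: with every library brought to a common FPKM sum 2122 rose and 1345 fell, and with the length and GC trend removed 2671 rose (24.9% of 10740 genes with a length) and 2056 fell (19.1%). For the side check, kd.1 against the same 2 controls gave 15.8% up and 13.4% down. Both contrasts share the control libraries, so only kd.2 against kd.1 tests a difference between the lines: there 11.9% of genes were higher in kd.2 and 20.3% lower. The shares of all genes given here are the background against which each programme is read.

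Among the genes that fell furthest, several were near control level in kd.1. STAMBP, a deubiquitinase of endosomal sorting, read 17.9 and 17.2 FPKM in the control and 3.45 and 3.27 in kd.2 (log2 change -2.35 ± 0.07, adjusted p = 2.59e-06). Espin, ESPN, an actin bundler of microvilli, read 2.01 and 2.46 FPKM in the control and 0.36 and 0.41 in kd.2 (log2 change -2.26 ± 0.14, adjusted p = 5.73e-05). RGS19, which switches off G proteins of the Gi class, read 14.6 and 15.7 FPKM in the control and 4.03 and 4.27 in kd.2 (log2 change -1.84 ± 0.08, adjusted p = 1.51e-05). In all 3 genes both kd.2 libraries lay far below the controls, while kd.1 read 19.2 and 19.7 FPKM for STAMBP, 2.36 and 2.47 for ESPN and 13.6 and 14.8 for RGS19, and kd.2 lay below kd.1 (differences -2.5 ± 0.07, adjusted p = 1.54e-06, -2.38 ± 0.14, adjusted p = 1.48e-05 and -1.75 ± 0.08, adjusted p = 7.83e-06). FOLR1, the folate receptor alpha, fell from 8.7 and 10.9 to 2.6 and 2.76 FPKM and RARRES1, a retinoid-induced membrane protein, from 10.6 and 10.0 to 2.91 and 2.93. Both were lower than in kd.1 too (differences -1.58 ± 0.11, adjusted p = 3.91e-05 and -2.08 ± 0.08, adjusted p = 5.14e-06).

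RARRES1 and a further pair of genes fell in kd.2 and rose in kd.1, where RARRES1 read 12.2 and 13.2 FPKM. CDKN1C, the cyclin-dependent kinase inhibitor p57, read 6.51 and 8.72 FPKM in the control and 1.35 and 1.57 in kd.2 (log2 change -2.29 ± 0.14, adjusted p = 5.73e-05), and 15.2 and 17.1 in kd.1. SEPP1, the secreted selenium carrier selenoprotein P, read 4.08 and 3.87 FPKM in the control and 0.71 and 0.85 in kd.2 (log2 change -2.21 ± 0.13, adjusted p = 5.73e-05), and 8.85 and 11.1 in kd.1. The order kd.2, control, kd.1 held in every library of CDKN1C and SEPP1, and the lines differed by -3.38 ± 0.14, adjusted p = 5.55e-06 and -3.51 ± 0.13, adjusted p = 5.14e-06. Of the 12 largest falls, the remaining 5 were called down in kd.1 as well. CRYAB, a small heat shock protein gene, fell from 2.34 and 3.17 to 0.39 and 0.38 FPKM, the LIM domain gene CRIP2 from 24.3 and 30.3 to 5.32 and 5.15, the surface protein gene LY6D from 1.69 and 2.12 to 0.49 and 0.4 and SNCG, gamma-synuclein, from 205 and 246 to 62.4 and 68.2. HOTS fell from 3.19 and 4.63 to 0.93 and 0.74 FPKM, but it overlaps H19 on the other strand and its level is uncertain where counting did not use strand. CRYAB reached 1 FPKM in the controls alone, so it passed the filter only through the libraries where it is high. With the length trend removed the 11 of these 12 genes that have a length kept falls of at least 1.46 log2 units (SNCG, -1.46).

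The largest rises held growth factor ligands and membrane proteins. ANTXR2, an anthrax toxin receptor that binds basement membrane proteins, read 0.49 and 0.39 FPKM in the control and 1.94 and 1.91 in kd.2 (log2 change 1.91 ± 0.15, adjusted p = 0.000152), with 0.49 and 0.52 in kd.1. PLSCR4, a phospholipid scramblase, read 2.44 and 1.99 FPKM in the control and 6.68 and 6.17 in kd.2 (log2 change 1.5 ± 0.14, adjusted p = 0.000234), with 2.6 and 2.08 in kd.1. Both genes were highest in the kd.2 pair among the 6 libraries, and higher than in kd.1 (1.74 ± 0.15, adjusted p = 0.000112, and 1.43 ± 0.14, adjusted p = 0.000179). ANTXR2 reached 1 FPKM in the kd.2 pair alone. It thus passed the filter only through the libraries where it is high, and its tests are no independent support. EPGN and EREG, which encode the EGF receptor ligands epigen and epiregulin and both lie on chromosome 4, rose from 6.3 and 5.0 to 16.7 and 16.4 FPKM and from 12.5 and 9.44 to 28.6 and 27.7 FPKM. RGS2, which switches off G proteins of the Gq class, rose from 38.5 and 38.8 to 87.7 and 101 FPKM, opposite to RGS19. TNKS2, the poly(ADP-ribose) polymerase tankyrase 2, rose from 7.29 and 5.52 to 14 and 14.5 FPKM. The phosphatase gene PTPN11 (SHP2), the mitochondrial DNA packaging factor TFAM, MBLAC2, the cholesterol-esterifying enzyme gene SOAT1 and the choline transporter gene SLC44A1 rose by 1.86, 1.63, 1.2, 1.2 and 1.18 log2 units, and by 1.63, 1.31, 1.04, 1.5 and 1.22 in kd.1. ARHGEF10, a guanine nucleotide exchange factor, completed the 12 (1.16 and 0.86 to 2.47 and 2.3 FPKM), but its call was lost with any of the 4 libraries left out (adjusted p = 0.0962, 0.227, 0.129 and 0.11).

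**Figure D2:**
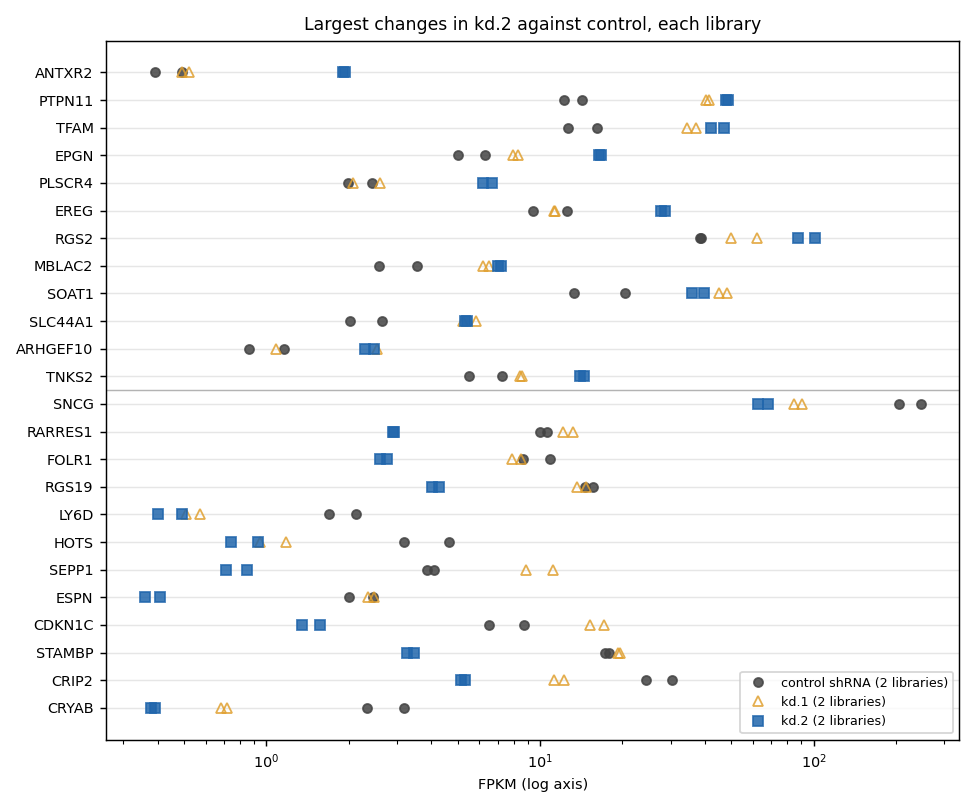
FPKM (log axis) of the 12 risen and 12 fallen genes with the largest changes in kd.2, 1 point per library for the control (circles), kd.1 (triangles) and kd.2 (squares). The kd.2 squares lie clear of the control circles in every gene, which was a condition of being chosen. For STAMBP, ESPN, RGS19 and PLSCR4 the kd.1 triangles lie beside the controls.

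The following promoters are shown because they belong to ZNF281 itself and to the fallen genes of the largest 12 whose RefSeq promoter (GRCh38.p14, 250 bases before to 50 after the start) holds the GC-rich run CCCTCCCC, the kind of element ZNF281 is known to bind. Capitals mark that run, or its reverse complement GGGGAGGG, and each sequence is written 5′ to 3′ on the gene's own strand, here the minus strand. The ZNF281 promoter (chr1:200409987-200410286) holds 1 match, that of RGS19 (chr20:64079915-64080214) 1 and that of RARRES1 (chr3:158732408-158732707) 2.
ZNF281: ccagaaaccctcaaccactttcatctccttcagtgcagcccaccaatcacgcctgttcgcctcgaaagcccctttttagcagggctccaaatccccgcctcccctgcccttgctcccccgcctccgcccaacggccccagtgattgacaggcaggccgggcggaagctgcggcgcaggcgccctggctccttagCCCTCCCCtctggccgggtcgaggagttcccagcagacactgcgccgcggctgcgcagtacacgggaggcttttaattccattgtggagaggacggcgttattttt
RGS19: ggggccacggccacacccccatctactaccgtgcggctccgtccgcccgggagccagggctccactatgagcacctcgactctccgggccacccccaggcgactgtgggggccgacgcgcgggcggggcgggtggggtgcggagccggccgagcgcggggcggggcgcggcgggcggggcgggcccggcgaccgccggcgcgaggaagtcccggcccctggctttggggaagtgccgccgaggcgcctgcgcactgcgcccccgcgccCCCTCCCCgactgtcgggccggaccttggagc
RARRES1: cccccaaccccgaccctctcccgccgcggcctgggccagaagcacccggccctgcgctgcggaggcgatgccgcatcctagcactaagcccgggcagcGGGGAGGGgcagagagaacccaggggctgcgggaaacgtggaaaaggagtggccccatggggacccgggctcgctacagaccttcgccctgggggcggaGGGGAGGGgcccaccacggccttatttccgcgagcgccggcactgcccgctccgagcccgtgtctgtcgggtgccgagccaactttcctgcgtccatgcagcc
Of the 27 genes named above for size of change, the targeted gene, its paralog and ANXA10 included, 17 were in the promoter table. The run was in 3 of the 6 lower ones and in 0 of the 11 higher ones. Over all genes, 15.7% of 1429 promoters of risen genes, 15.1% of 1945 of fallen genes, 16.4% of 5566 of genes that were not called and 16% of 8940 of all genes tested held it on either strand, as did 12.8% of the 27305 promoters in the table. A match of letters is a description and not a binding site.

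In absolute amounts the largest falls were in ribosomal protein and ferritin transcripts. RPL13A, of the large ribosomal subunit, read 2234 and 2585 FPKM in the control and 1609.6 and 1599 in kd.2 (log2 change -0.58 ± 0.1, adjusted p = 0.00299). RPS27, RPLP1, RPS6 and FTH1, the ferritin heavy chain, fell too, with log2 changes of -0.52, -0.34, -0.31 and -0.44. The controls were themselves apart in these genes, FTH1 at 5531 and 6674 FPKM, and without control replicate 2 the FTH1 call was lost (adjusted p = 0.139). These 4 calls, but not that of RPL13A, were lost without kd.2 replicate 1 or replicate 2 (adjusted p from 0.0805 to 0.272). The largest rises were in TMSB4X, thymosin beta 4, which sequesters actin (1270.2 and 1412 FPKM in the control and 1875 and 1886 in kd.2), and in NPM1, HSP90AB1, ACTG1 and EEF2, which encode nucleophosmin, a cytosolic HSP90, cytoplasmic gamma actin and the elongation factor that moves the ribosome. NPM1 rose from 2075 and 2175 to 2653 and 2503 FPKM and HSP90AB1 from 1045 and 1097 to 1306 and 1266. All 5 calls were lost without kd.2 replicate 1 or replicate 2 (adjusted p from 0.058 to 0.276), and that of ACTG1 without control replicate 2 (0.0519).

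Programmes were read next. Each list gives the number of tested members that rose and fell beside the 15.7% and 22.2% of all genes, and counts in brackets are those with 1 library left out, in the order control replicate 1, control replicate 2, kd.2 replicate 1 and kd.2 replicate 2. Leaving out a kd.2 library lowered the counts over all genes too, as given above. Of the genes the naming rule took, 117 lost their call without kd.2 replicate 1, 108 without kd.2 replicate 2, 21 without control replicate 2 and 3 without control replicate 1. With the trend removed the background is 24.9% up and 19.1% down. The naming rule took list members only where kd.2 and control libraries did not overlap, so that separation is no added support.

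**Figure D3:**
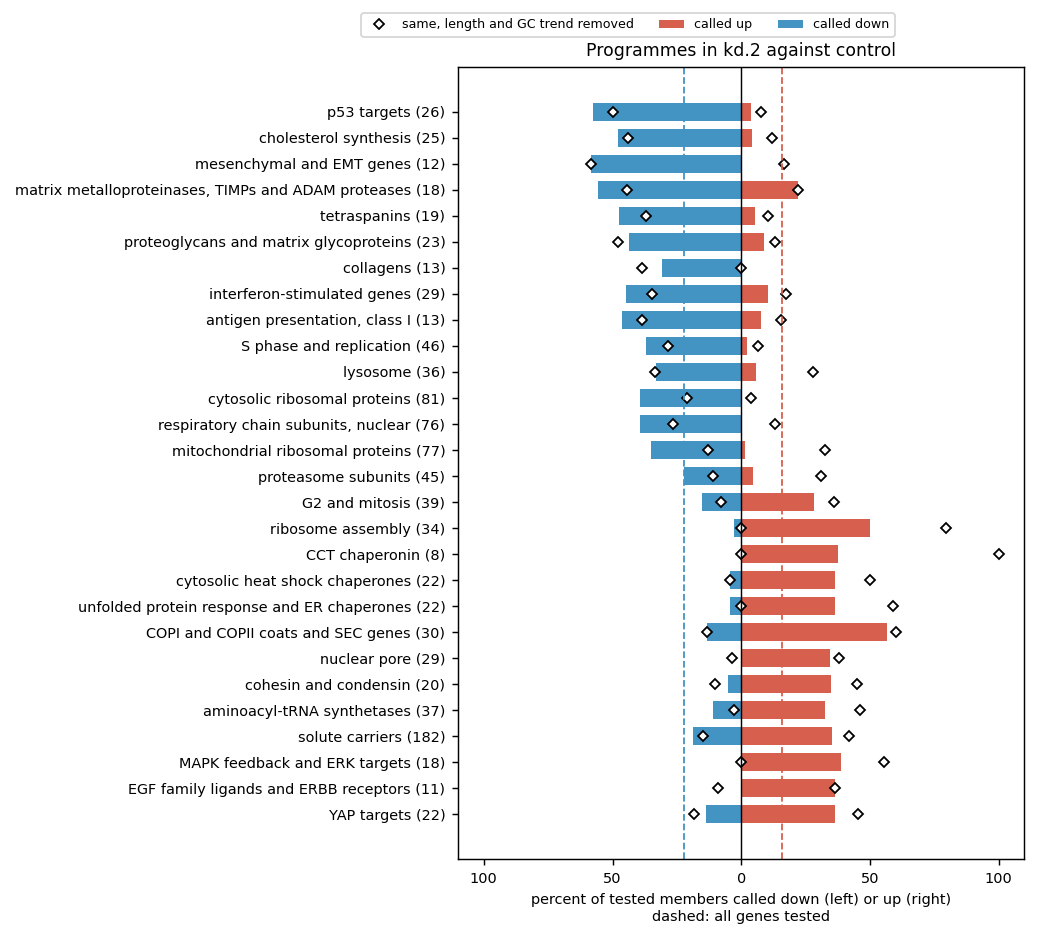
Percent of tested members of 28 programmes (number tested in brackets) called down (bars to the left) or up (bars to the right) in kd.2 against control, with dashed lines at the 22.2% and 15.7% of all genes and diamonds for the same shares with the length and GC trend removed. For p53 targets and cholesterol synthesis bars and diamonds lie on the same side, whereas the mitochondrial ribosomal proteins and the proteasome change sides. The balance over all genes turns too, to 24.9% up and 19.1% down with the trend removed.

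Targets of the tumour suppressor p53, which halt the cell cycle or promote apoptosis after damage, were mostly lower. Of 26 tested members 15 fell (17, 15, 12 and 11) and 1 rose, 57.7% down, with a median of -0.3. MDM2, the ubiquitin ligase that degrades p53, read 14.1 and 14.8 FPKM in the control and 7.22 and 6.32 in kd.2 (log2 change -1.09 ± 0.09, adjusted p = 0.00018). DDB2, a sensor of ultraviolet damage, read 27.2 and 28.6 FPKM in the control and 14.6 and 14.3 in kd.2 (log2 change -0.94 ± 0.07, adjusted p = 9.11e-05). Cyclin G1, CCNG1, fell from 65.9 and 62.9 to 36.4 and 33.6 FPKM and the death receptor gene TNFRSF10B from 29.9 and 27.3 to 18.2 and 17.7. In these 4 genes both kd.2 libraries lay far below both controls, and the controls were close together. CDKN1A, which encodes p21, an inhibitor of cyclin-dependent kinases, went down from 37.5 and 43.9 to 22.2 and 21 FPKM. With the length trend removed 13 fell and 2 rose (median -0.2). In kd.1 the calls were 1 up and 15 down against the same controls, and between the lines 5 were higher and 6 lower in kd.2.

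Cholesterol synthesis differed between the lines. Of 25 enzymes and regulators 12 fell (12, 13, 8 and 6) and 1 rose, 48% down, with a median of -0.26. TM7SF2, a sterol reductase, read 8.36 and 8.13 FPKM in the control and 3.76 and 3.97 in kd.2 (log2 change -1.07 ± 0.08, adjusted p = 0.000128). The mevalonate pathway enzyme MVD read 51.2 and 55.7 FPKM in the control and 36.6 and 35.5 in kd.2 (log2 change -0.56 ± 0.08, adjusted p = 0.00125), and ACAT2, which makes the first intermediate, acetoacetyl-CoA, read 102 and 104 FPKM in the control and 74 and 71.2 in kd.2 (log2 change -0.5 ± 0.07, adjusted p = 0.00156). The kd.2 pair was the lower pair in each. With the length trend removed 11 fell and 3 rose. In kd.1 the calls were 2 up and 2 down (median -0.04), and 11 members were lower and 1 higher in kd.2 than in kd.1 (median -0.24). In the neighbouring list of fatty acid synthesis 2 of 14 rose (7, 0, 0 and 0) and 1 fell, against 4 and 2 with the trend removed. The fallen gene was ACSS2, which makes acetyl-CoA from acetate (15.6 and 14.8 to 7.84 and 8.69 FPKM). The desaturase gene SCD rose from 185 and 156 to 208 and 213 FPKM and ACLY, which makes acetyl-CoA from citrate, from 124 and 104 to 136 and 136, but both calls were lost with control replicate 2, kd.2 replicate 1 or kd.2 replicate 2 left out (adjusted p = 0.0506, 0.132 and 0.167 for SCD, and 0.056, 0.184 and 0.186 for ACLY).

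Genes of ribosome assembly, the nucleolar work of making ribosomes, were often higher. Of 34 genes 17 rose (21, 22, 6 and 4) and 1 fell, 50% up, with a median of 0.23. WDR43, of the small subunit processome, read 34.4 and 29.9 FPKM in the control and 49.6 and 46.5 in kd.2 (log2 change 0.58 ± 0.08, adjusted p = 0.00123). RRS1, needed for the large subunit, read 41.3 and 41.3 FPKM in the control and 57.4 and 58 in kd.2 (log2 change 0.48 ± 0.06, adjusted p = 0.000855). RRP12 rose from 19.2 and 18.8 to 24.6 and 26.3 FPKM and the RNA helicase gene DDX21 from 106 and 92.2 to 141 and 133. Each kd.2 library exceeded each control in these 4 genes, as the naming rule required. The DDX21 call did not hold without kd.2 replicate 1 (log2 change 0.43). MYC, the transcription factor known to drive this programme, read 101 and 100.04 FPKM in the control and 137 and 147 in kd.2 (log2 change 0.5 ± 0.07, adjusted p = 0.00108), and its partner gene MAX fell from 22.7 and 23.7 to 17.7 and 17.6 FPKM. Of 10 MYC network genes 2 rose and 3 fell (median -0.03). A link between MYC and the ribosome assembly genes was not tested. With the length trend removed 27 ribosome assembly genes rose and 0 fell, and with a common FPKM sum 26 and 1. In kd.1 the calls were 2 up and 3 down, and 14 members were higher and 1 lower in kd.2 than in kd.1.

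The ribosomal protein genes themselves stood on the other side, with the length trend. Of 81 cytosolic ribosomal proteins 0 rose and 32 fell (78, 30, 2 and 2), 39.5% down, with a median of -0.28. Their transcripts are short (median 1171 bases) and stood 0.28 log2 units higher (median) in control replicate 2 than in replicate 1. RPL14 read 1155 and 1316 FPKM in the control and 898 and 870.5 in kd.2 (log2 change -0.48 ± 0.09, adjusted p = 0.00521), and RPL27A 212 and 264 FPKM in the control and 177 and 166 in kd.2 (log2 change -0.47 ± 0.1, adjusted p = 0.00876). RPS27L, a p53-regulated paralog of RPS27, fell from 167 and 209 to 129 and 121 FPKM. In RPL27A and RPS27L the controls differed by more than the kd.2 libraries did. Without kd.2 replicate 1 or 2 the calls of RPL14 (adjusted p = 0.0586 and 0.0693) and RPL27A (0.0554 and 0.0853) were lost. With the trend removed 17 fell and 3 rose, with a median of -0.08, near the 19.1% of all genes. Ribosomal protein genes have many processed copies, so reads may be split between them. Between the lines 3 were lower and 1 higher in kd.2.

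Nuclear-encoded mitochondrial genes were mixed. Of 76 respiratory chain subunits 30 fell (62, 30, 3 and 1) and 0 rose (median -0.22), and with the length trend removed 20 fell and 10 rose (median -0.07). NDUFB6, of complex I, read 88.2 and 104 FPKM in the control and 62.1 and 59.6 in kd.2 (log2 change -0.65 ± 0.08, adjusted p = 0.00088), below both controls and still lower with the trend removed (-0.51, adjusted p = 0.000455). Of 77 mitochondrial ribosomal proteins 27 fell (51, 23, 2 and 1) and 1 rose, which turned to 10 and 25 with the trend removed (median -0.15 and 0.05), so their direction depends on the fit. Among citric acid cycle enzymes 4 of 21 fell (6, 5, 2 and 2) and 1 rose, 19% down and under the background, and 4 fell and 6 rose with the trend removed. Citrate synthase, CS, the entry enzyme, read 118 and 113 FPKM in the control and 66.5 and 67.7 in kd.2 (log2 change -0.78 ± 0.06, adjusted p = 0.000128), with 109 and 105 in kd.1 and -0.72, adjusted p = 5.04e-05 after removal of the trend. Both kd.2 libraries lay below all 4 others. Proteasome subunits also changed sides: 10 of 45 fell (22, 10, 4 and 4) and 2 rose, against 5 and 14 with the trend removed. The 22.2% of them that fell equals the share of all genes, whose balance turned in the same way with the trend removed. PSMB8, a subunit of the immunoproteasome, fell under both fits (35.9 and 37.4 to 22.7 and 23.9 FPKM, log2 change -0.65 ± 0.07, adjusted p = 0.000338, and -0.41, adjusted p = 0.00111 with the trend removed).

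Many chaperone and secretory pathway genes rose. Of 30 coat and translocon genes (COPI, COPII and SEC), which build vesicles between the endoplasmic reticulum (ER) and the Golgi, 17 rose (21, 17, 7 and 8) and 4 fell, 56.7% up, with a median of 0.21. SEC24D, a cargo adaptor of COPII, read 14.4 and 13.1 FPKM in the control and 26.9 and 27 in kd.2 (log2 change 0.96 ± 0.07, adjusted p = 9.28e-05). COPZ2, of the COPI coat, read 6.62 and 8.3 FPKM in the control and 14.4 and 14.1 in kd.2 (log2 change 0.93 ± 0.11, adjusted p = 0.000634). COPB1 rose from 61.2 and 51.7 to 87.1 and 85.5 FPKM and ARCN1, another COPI subunit, from 63.2 and 57.7 to 86 and 87.5. Each kd.2 library was above each control in these 4, and with the trend removed 18 rose and 4 fell. The calls in kd.1 were 14 up and 1 down, and between the lines 11 were higher and 2 lower in kd.2.

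Of 22 ER chaperone and unfolded protein response genes 8 rose (12, 11, 4 and 4) and 1 fell, with 13 and 0 once the trend was removed. In kd.1 the calls were 6 up and 1 down, and between the lines 6 were higher and 0 lower in kd.2. DNAJC3, a co-chaperone that inhibits the stress kinase PERK, read 11.1 and 9.75 FPKM in the control and 17.9 and 17.1 in kd.2 (log2 change 0.74 ± 0.08, adjusted p = 0.000504). XBP1, a transcription factor of this response, read 80.7 and 79.8 FPKM in the control and 109.7 and 108 in kd.2 (log2 change 0.44 ± 0.06, adjusted p = 0.00102), and the chaperone BiP, HSPA5, read 194 and 199 FPKM in the control and 258 and 250.2 in kd.2 (log2 change 0.37 ± 0.06, adjusted p = 0.00302). In XBP1 and HSPA5 the duplicates of both groups were close together and the groups apart, though the HSPA5 call did not hold without kd.2 replicate 1 (adjusted p = 0.0558). Of 22 cytosolic heat shock chaperones 8 rose (9, 15, 3 and 5) and 1 fell, the fallen gene being CRYAB, against 11 and 1 with the trend removed. BAG3, the co-chaperone of HSP70, rose from 31.6 and 32.5 to 40.7 and 43.4 FPKM and HSPH1 from 49.9 and 49 to 63 and 63.4. Of the 8 tested subunits of the CCT chaperonin, which folds actin and tubulin, 3 rose (6, 6, 0 and 0) and 0 fell, and 8 of the same 8 rose with the trend removed. TCP1 read 170.2 and 162 FPKM in the control and 201 and 203 in kd.2 (log2 change 0.28 ± 0.06, adjusted p = 0.0091), a call lost without kd.2 replicate 1 or 2 (adjusted p = 0.0871 and 0.0902).

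Among genes of translation supply, 12 of 37 aminoacyl-tRNA synthetases rose (19, 14, 3 and 4) and 4 fell, against 17 and 1 with the trend removed. GARS, the glycyl enzyme, read 139 and 139 FPKM in the control and 193 and 189 in kd.2 (log2 change 0.46 ± 0.06, adjusted p = 0.00108), and CARS, the cysteinyl enzyme, rose from 13.9 and 14.4 to 18.7 and 18.3 FPKM. In kd.1 12 synthetases rose and 1 fell, and between the lines 3 were higher and 8 lower in kd.2. Of 49 initiation factors 12 rose (18, 17, 1 and 2) and 4 fell (13, 6, 1 and 2), against 20 and 5. EIF5, which promotes GTP hydrolysis by EIF2, rose from 52.6 and 45.2 to 68.2 and 66 FPKM, and EIF2B2, of the exchange factor for EIF2, fell from 27.7 and 29.5 to 20.6 and 20.5. In the list of ATF4 and amino acid stress genes 8 of 24 rose (9, 8, 1 and 4) and 1 fell (5, 2, 0 and 0), against 14 and 2 with the trend removed. Asparagine synthetase, ASNS, rose from 38.4 and 42.6 to 56.3 and 52.4 FPKM and MTHFD2, of mitochondrial folate metabolism, from 91 and 87.4 to 119 and 116. The ASNS call did not hold without kd.2 replicate 1 (adjusted p = 0.0554). Here the lines differed in the other direction: 13 members were lower in kd.2 than in kd.1 and 1 higher. Of 28 NRF2 targets 4 rose (2, 1, 0 and 2) and 6 fell (8, 3, 2 and 2), a balance that turned to 7 and 4 with the trend removed. The balance over all genes turned in the same way. Between the lines the NRF2 targets too were lower, with 14 lower and 0 higher in kd.2 than in kd.1.

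The nuclear pore, cohesin and condensin, and kinesin lists, whose transcripts are long, held more risen than fallen genes. Other lists of nuclear complexes did not, the NuRD and Polycomb lists below among them. Of 22 SWI/SNF genes 2 rose and 3 fell, against 5 and 5 with the trend removed. Of 32 Mediator genes 3 rose and 5 fell, against 6 and 3. Of 29 nuclear pore genes (median transcript 5376 bases) 10 rose (20, 8, 1 and 2) and 0 fell, with 11 and 1 after removal of the trend. NUP43 read 7.61 and 7.67 FPKM in the control and 10.9 and 11 in kd.2 (log2 change 0.51 ± 0.07, adjusted p = 0.00117), and SEC13, shared by the pore and the COPII coat, read 163 and 162 FPKM in the control and 209.6 and 206 in kd.2 (log2 change 0.35 ± 0.06, adjusted p = 0.00299). The SEC13 call did not hold without kd.2 replicate 1 (adjusted p = 0.0527). Of 20 cohesin and condensin genes, which shape chromosomes, 7 rose (13, 5, 0 and 0) and 1 fell, against 9 and 2 with the trend removed. The condensin gene SMC2 rose from 22.7 and 20.6 to 27.5 and 26.1 FPKM, and the cohesin acetyltransferase gene ESCO1 was the one that fell (5.76 and 4.91 to 3.91 and 3.9 FPKM). Both calls were lost without kd.2 replicate 1 or 2 (adjusted p = 0.109 and 0.0576 for SMC2 and 0.0842 and 0.0814 for ESCO1). Of 28 kinesins 7 rose (14, 7, 0 and 0) and 1 fell, against 8 and 1 with the trend removed, near the 24.9% of all genes that rose under that fit. The fallen gene was KIF3B, a subunit of the ciliary transport motor, at 11.2 and 9.35 FPKM in the control and 4.87 and 4.8 in kd.2 (log2 change -1.06 ± 0.1, adjusted p = 0.000223), with 12.3 and 11.7 in kd.1. Both kd.2 libraries read less than any other library.

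Transcripts of some growth factor signalling genes differed from the control and from kd.1. In this pathway EGF family ligands bind ERBB receptors, the signal runs through RAS and ERK, and ERK targets include both effectors and feedback inhibitors. Among ligands and receptors 4 of 11 rose (6, 3, 2 and 2) and 0 fell, against 4 and 1 with the trend removed. The ligand gene EPGN read 6.3 and 5.0 FPKM in the control and 16.7 and 16.4 in kd.2 (log2 change 1.54 ± 0.11, adjusted p = 9.11e-05), and EREG read 12.5 and 9.44 FPKM in the control and 28.6 and 27.7 in kd.2 (log2 change 1.36 ± 0.12, adjusted p = 0.00019). AREG, amphiregulin, rose from 3.62 and 3.92 to 5.27 and 5.31 FPKM, a call lost without kd.2 replicate 1 or 2 (adjusted p = 0.0798 and 0.0796). The receptor gene EGFR did not pass, at 22.9 and 12.1 FPKM in the control and 23.7 and 27 in kd.2, where the controls were apart. In kd.1 the calls of this list were 3 up and 2 down, and 4 members were higher and 2 lower in kd.2 than in kd.1. AREG was higher in kd.1 than in kd.2, at 6.09 and 7.54 FPKM. EPGN rose in kd.1 too (log2 change 0.53), while EREG did not pass there (0.06). ERRFI1, an inhibitor of the receptor, rose from 8.48 and 6.86 to 10.3 and 9.05 FPKM, a call lost with control replicate 2, kd.2 replicate 1 or kd.2 replicate 2 left out (adjusted p = 0.168, 0.287 and 0.0905).

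Of 18 ERK targets and feedback genes 7 rose (7, 7, 5 and 6) and 0 fell, 38.9% up. EPHA2, a receptor tyrosine kinase, read 50.6 and 44.4 FPKM in the control and 76.5 and 80.7 in kd.2 (log2 change 0.73 ± 0.08, adjusted p = 0.000443). FOSL1, the AP-1 subunit FRA1, read 13.2 and 13 FPKM in the control and 20.7 and 20.1 in kd.2 (log2 change 0.64 ± 0.07, adjusted p = 0.000451). ETV5, an ETS factor, rose from 13.2 and 11.8 to 18.7 and 18.7 FPKM and cyclin D1, CCND1, from 22 and 20.0 to 28.5 and 30.3, with 10.7 and 10.7 in kd.1. The groups did not overlap in these 4 genes. The feedback genes DUSP6, a phosphatase, and SPRY2, a Sprouty inhibitor, did not pass, at 0.92 and 0.95 FPKM in the control and 1.05 and 1.42 in kd.2, and at 12.1 and 11.6 FPKM in the control and 12.2 and 13.5 in kd.2. With the length trend removed 10 rose and 0 fell. In kd.1 the calls were 1 up and 5 down, and 9 members were higher and 2 lower in kd.2 than in kd.1 (median 0.28). Among immediate early genes 6 of 20 rose (6, 5, 3 and 3) and 1 fell, against 10 and 0 with the trend removed. JUNB, another AP-1 subunit, rose from 31.2 and 29.6 to 39.6 and 39.8 FPKM, a call lost without kd.2 replicate 1 or 2 (adjusted p = 0.0603 and 0.0586).

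**Figure D4:**
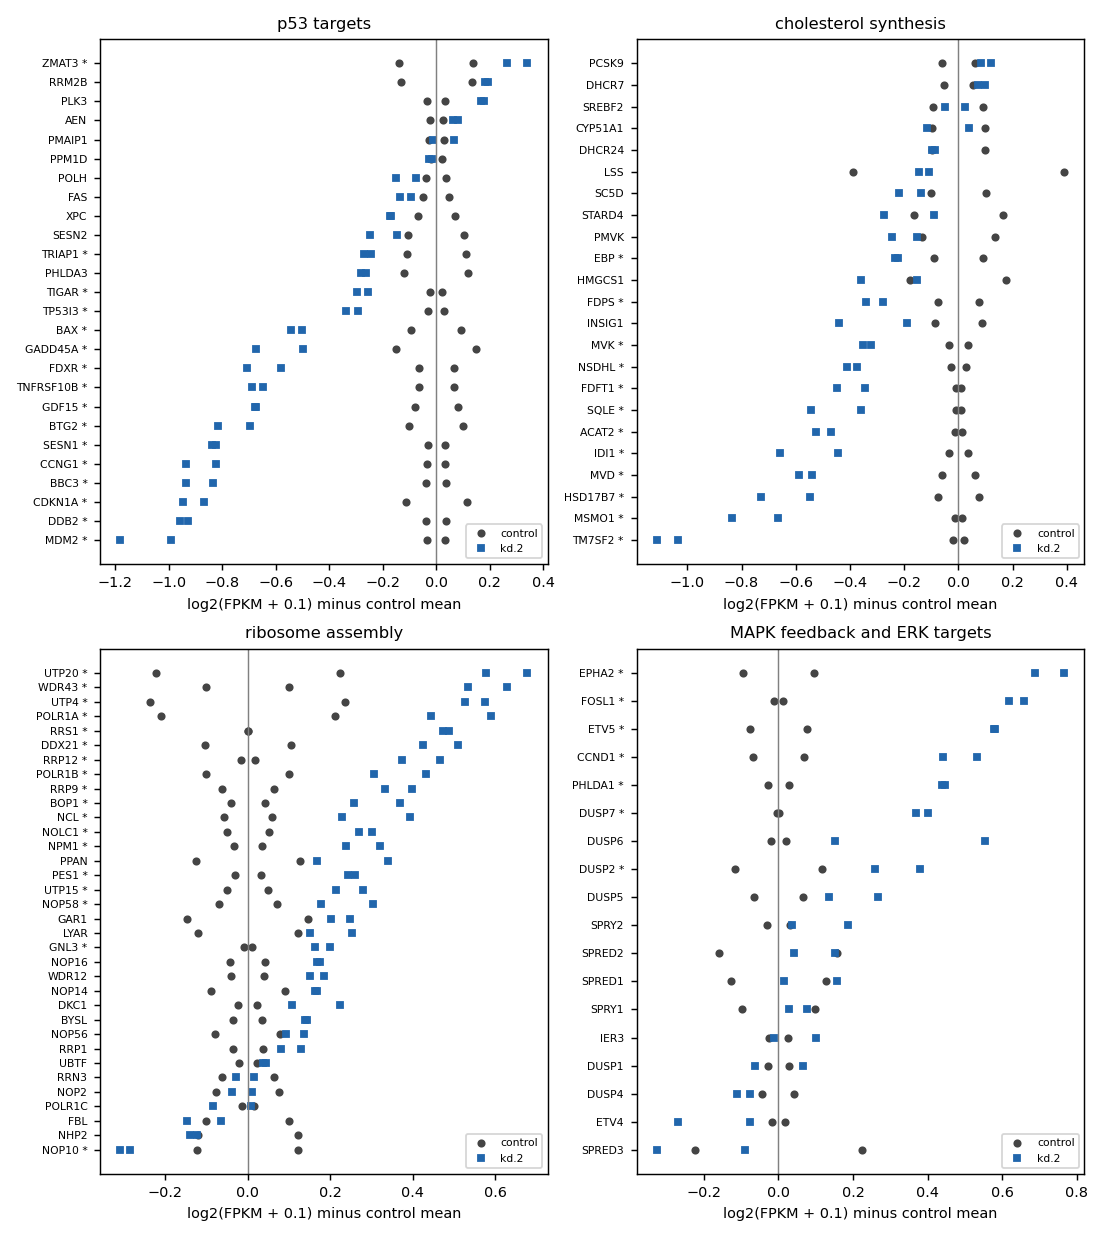
Level of the tested members of 4 programmes, apart from 2 not reported here, in each control (circles) and kd.2 (squares) library, as log2(FPKM + 0.1) minus the control mean (horizontal axis), with an asterisk for genes called. Most p53 and cholesterol synthesis squares lie left of the controls, down to MDM2 and TM7SF2, and most ribosome assembly squares lie right of them.

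Targets of YAP, the Hippo pathway coactivator, split. Of 22 members 8 rose (10, 8, 1 and 1) and 3 fell (5, 2, 2 and 2), against 10 and 4 with the trend removed. The coagulation receptor gene F3, tissue factor, read 16.1 and 15.5 FPKM in the control and 24.5 and 23.8 in kd.2 (log2 change 0.61 ± 0.07, adjusted p = 0.000482), and YAP1 itself read 185 and 158 FPKM in the control and 230.1 and 220.3 in kd.2 (log2 change 0.4 ± 0.08, adjusted p = 0.00759). The YAP1 call did not hold without kd.2 replicate 1 or 2 (adjusted p = 0.083 and 0.0534). The receptor kinase gene AXL fell from 16.4 and 15.8 to 10.6 and 10.9 FPKM and IGFBP3, which binds insulin-like growth factors, from 8.56 and 7.55 to 5.24 and 4.37. Calls in kd.1 were 2 up and 8 down, and 8 members were higher and 3 lower in kd.2 than in kd.1. In the plasminogen system 4 of 8 rose (4, 4, 2 and 2) and 2 fell (2, 2, 1 and 1), against 5 and 1 with the trend removed. SERPINE2, an inhibitor of thrombin and urokinase, read 33.1 and 30.3 FPKM in the control and 53.5 and 53.5 in kd.2 (log2 change 0.75 ± 0.07, adjusted p = 0.000197). PLAT, the tissue plasminogen activator, read 2.48 and 1.82 FPKM in the control and 4.76 and 4.5 in kd.2 (log2 change 1.09 ± 0.17, adjusted p = 0.00236), and 0.57 and 0.43 in kd.1. S100A10, the partner of annexin A2 at the cell surface, fell from 376 and 464 to 215 and 196 FPKM.

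Ligand genes of the TGF-beta family rose and TGFBI fell. TGFB3 read 3.49 and 3.72 FPKM in the control and 7.6 and 7.04 in kd.2 (log2 change 1.0 ± 0.11, adjusted p = 0.000418) and TGFB1 47.7 and 46.3 FPKM in the control and 60.5 and 65.5 in kd.2 (log2 change 0.42 ± 0.07, adjusted p = 0.00266). TGFBI, a matrix protein named for its induction by TGF-beta, read 21.6 and 20.0 FPKM in the control and 8.77 and 9.25 in kd.2 (log2 change -1.2 ± 0.07, adjusted p = 5.73e-05), with 20.4 and 19.9 in kd.1. In each of the 3 genes the kd.2 libraries lay apart from both the control and the kd.1 libraries. Over the list 7 of 24 rose (9, 6, 4 and 4) and 5 fell (5, 5, 1 and 4), against 6 and 6 with the trend removed.

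Mesenchymal genes and several matrix lists, though not the laminins, held larger shares of fallen genes than the background, the mesenchymal list in kd.1 as well. Of 12 mesenchymal and EMT genes 7 fell (7, 8, 4 and 4) and 0 rose, 58.3% down, with a median of -0.35 (7 and 2 with the length trend removed). VIM, the intermediate filament vimentin, read 339 and 350.1 FPKM in the control and 267 and 276 in kd.2 (log2 change -0.34 ± 0.07, adjusted p = 0.00572). ACTA2, smooth muscle actin, read 5.1 and 5.69 FPKM in the control and 2.41 and 2.8 in kd.2 (log2 change -1.02 ± 0.11, adjusted p = 0.000441), and the lysyl oxidase gene LOXL2, which cross-links collagen, read 29.4 and 25.1 FPKM in the control and 17.3 and 17.8 in kd.2 (log2 change -0.63 ± 0.09, adjusted p = 0.00124). Of 24 contractile genes 7 fell (9, 9, 5 and 5) and 1 rose (8, 1, 0 and 0), against 6 and 4 with the trend removed. MYLK, myosin light chain kinase, fell from 6.73 and 6.13 to 2.46 and 2.56 FPKM, MYL9, a light chain it phosphorylates, from 15.7 and 20.1 to 9.79 and 8.6 and the calponin gene CNN3 from 2.26 and 2.22 to 1.1 and 0.99. The kd.2 libraries lay below both controls in all of these. In kd.1 the calls were 1 up and 5 down for the mesenchymal list, with the same median of -0.35. For the contractile list they were 1 up and 7 down. Between the lines 3 mesenchymal members were higher and 3 lower in kd.2, and 4 contractile members were higher and 4 lower.

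Of 18 matrix metalloproteinases, TIMPs and ADAM proteases 10 fell (9, 9, 6 and 7) and 4 rose (5, 3, 0 and 0), 55.6% down, with a median of -0.32, and 8 fell and 4 rose with the trend removed. MMP24, a membrane protease, read 9.78 and 8.33 FPKM in the control and 3.13 and 3.41 in kd.2 (log2 change -1.44 ± 0.1, adjusted p = 0.000105). ADAMTS10, which acts on microfibrils, fell from 4.16 and 4.69 to 1.85 and 2.15 FPKM and the inhibitor gene TIMP2 from 101 and 84.5 to 60.9 and 64.2. Of 23 proteoglycans and matrix glycoproteins 10 fell (9, 10, 6 and 7) and 2 rose. Decorin, DCN, which binds collagen fibrils, read 72.5 and 73.3 FPKM in the control and 38.6 and 37.9 in kd.2 (log2 change -0.93 ± 0.07, adjusted p = 0.000137), with 98.5 and 86 in kd.1. MATN2, matrilin 2, fell from 5.59 and 4.51 to 2.16 and 2.15 FPKM. Of 13 collagens 4 fell (4, 9, 1 and 2) and 0 rose, and 9 were lower and 1 higher in kd.2 than in kd.1 (median -0.45). COL7A1, of anchoring fibrils, read 8.32 and 8.14 FPKM in the control and 4.59 and 4.92 in kd.2 (log2 change -0.78 ± 0.08, adjusted p = 0.000449) and COL5A1 9.6 and 8.27 FPKM in the control and 5.95 and 6.45 in kd.2 (log2 change -0.52 ± 0.1, adjusted p = 0.0044). The COL5A1 call did not hold without kd.2 replicate 1 (adjusted p = 0.0554). With the length trend removed 5 collagens and 11 of the proteoglycan list fell. The median of the proteoglycan list was only -0.07. Of 8 laminins 1 rose and 0 fell (median 0.15). The kd.1 calls were 1 up and 8 down for the proteases and 3 up and 6 down for the proteoglycan list. For the collagens they were 5 up and 3 down (median 0.18). Between the lines 3 proteases were higher and 5 lower in kd.2, and 6 of the proteoglycan list were higher and 8 lower.

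Cell surface genes moved both ways. Of 19 tetraspanins, which organise membrane domains, 9 fell (10, 10, 5 and 5) and 1 rose, against 7 and 2 with the trend removed. TSPAN10 read 5.15 and 5.8 FPKM in the control and 2.04 and 1.98 in kd.2 (log2 change -1.4 ± 0.1, adjusted p = 9.28e-05), and TSPAN8 read 82.3 and 89 FPKM in the control and 54.5 and 52.6 in kd.2 (log2 change -0.68 ± 0.07, adjusted p = 0.00036), with 159.6 and 149 in kd.1. Of 15 desmosome and hemidesmosome genes 6 rose (9, 5, 3 and 2) and 1 fell (1, 4, 0 and 0), against 7 and 1 with the trend removed. DSP, desmoplakin, read 29.4 and 23 FPKM in the control and 38.9 and 40.3 in kd.2 (log2 change 0.6 ± 0.1, adjusted p = 0.00358), and the linker gene DST read 23.7 and 18.6 FPKM in the control and 31.7 and 33.2 in kd.2 (log2 change 0.62 ± 0.11, adjusted p = 0.00321). Their transcripts are long (list median 5777 bases), the controls were apart, and both were still higher with the length trend removed (0.5, adjusted p = 0.00086, and 0.44, adjusted p = 0.000937). In kd.1 7 of the desmosome list rose and 0 fell, and between the lines 0 were higher and 1 lower in kd.2. The collagen receptor genes ITGA1 and ITGA2 rose from 6.53 and 4.09 to 11.1 and 11.2 FPKM and from 4.36 and 2.71 to 6.64 and 7.09. In the tight junction list 4 of 23 fell (5, 6, 3 and 4) and 1 rose (5, 0, 0 and 0), against 5 and 3 with the trend removed. CLDN7, a claudin of tight junctions, read 13.8 and 14.8 FPKM in the control and 7.14 and 7.72 in kd.2, and 25.8 and 33 in kd.1, on the other side of the controls. KRT80, a keratin, likewise read 22.3 and 21.3 FPKM in the control and 11.1 and 11.9 in kd.2, and 30.3 and 32.3 in kd.1.

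Cell cycle lists diverged. In the S phase and replication list 17 of 46 fell (18, 23, 8 and 9) and 1 rose, 37% down, with a median of -0.13 (13 and 3 with the length trend removed). RFC4, of the clamp loader, read 80.4 and 79.5 FPKM in the control and 52.5 and 52.9 in kd.2 (log2 change -0.6 ± 0.06, adjusted p = 0.000251). UHRF1, which maintains DNA methylation at forks, read 35 and 32.5 FPKM in the control and 22.1 and 22.9 in kd.2 (log2 change -0.58 ± 0.06, adjusted p = 0.000518), and the sliding clamp gene PCNA read 387 and 399 FPKM in the control and 282.7 and 281.1 in kd.2 (log2 change -0.48 ± 0.07, adjusted p = 0.00133). The duplicates were close in both groups and the groups apart. Between the lines 13 were lower and 2 higher in kd.2. Of 39 G2 and mitosis genes 11 rose (16, 11, 3 and 3) and 6 fell (9, 5, 2 and 2). HMMR, of spindle assembly, read 25.9 and 25.2 FPKM in the control and 36.7 and 35.2 in kd.2 (log2 change 0.49 ± 0.06, adjusted p = 0.000848). INCENP, of the chromosomal passenger complex, rose from 13.2 and 10.5 to 17.4 and 18.6 FPKM, while the phosphatase gene CDC25B fell from 86.5 and 93.5 to 60.5 and 61.7 and CENPA, the centromeric histone, from 38.2 and 39.4 to 26.3 and 28.4. With the trend removed 14 rose and 3 fell. The kd.1 calls were 0 up and 14 down, and 18 members were higher and 1 lower in kd.2 than in kd.1 (median 0.23). In the list of D cyclins, CDKs and inhibitors CDK4 fell from 107 and 113 to 89.7 and 91.9 FPKM, and this call was lost with the trend removed (adjusted p = 0.0771) and without kd.2 replicate 1 or 2 (0.109 and 0.0782).

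Many interferon-stimulated and antigen presentation genes were lower. Of 29 tested interferon-stimulated genes 13 fell (16, 13, 5 and 5) and 3 rose, 44.8% down, with a median of -0.18 (10 and 5 with the trend removed). With a common FPKM sum 5 fell. OASL, of the oligoadenylate synthetase family, read 3.79 and 3.2 FPKM in the control and 1.59 and 1.51 in kd.2 (log2 change -1.12 ± 0.12, adjusted p = 0.000383). The interferon-induced gene IFI6 read 3.0 and 3.33 FPKM in the control and 0.99 and 1.12 in kd.2 (log2 change -1.5 ± 0.19, adjusted p = 0.000873), and the ubiquitin-like modifier ISG15 11.2 and 15.2 FPKM in the control and 6.76 and 7.16 in kd.2 (log2 change -0.9 ± 0.13, adjusted p = 0.00163). In kd.1 the calls were 3 up and 8 down, and 10 members were lower and 4 higher in kd.2 than in kd.1. Of 13 class I presentation genes 6 fell (6, 7, 2 and 3) and 1 rose, against 5 and 2 with the trend removed (median -0.24 and -0.03). HLA-C read 85.6 and 85.3 FPKM in the control and 62.7 and 62.2 in kd.2 (log2 change -0.45 ± 0.06, adjusted p = 0.000949), although reads of HLA genes may be split between close copies, and the peptide transporter gene TAP2 rose from 16.6 and 12.4 to 23.5 and 26 FPKM. Of 30 NF-kB and inflammatory genes 6 rose (8, 5, 4 and 2) and 10 fell (8, 8, 5 and 5), a balance that turned to 8 and 6 with the trend removed. The balance over all genes turned in the same way. LCN2, an acute-phase siderophore binder, fell from 37.3 and 41.5 to 16.5 and 16.3 FPKM, IL32 from 4.12 and 4.08 to 1.88 and 2.5, and SOD2, mitochondrial superoxide dismutase, rose from 58.1 and 50.9 to 86.3 and 81.5. IL1B read 0.78 and 0.74 FPKM in the control and 0.19 and 0.12 in kd.2 and 1.23 and 1.66 in kd.1. It passed the filter of 1 FPKM only through the kd.1 pair, where it is high.

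Of 36 lysosomal genes 12 fell (16, 13, 5 and 9) and 2 rose (9, 2, 1 and 1), while with the length trend removed 12 fell and 10 rose. NPC2, which carries cholesterol in the lysosome, read 96.3 and 110.3 FPKM in the control and 59.1 and 58.3 in kd.2 (log2 change -0.81 ± 0.07, adjusted p = 0.000224). The protease gene CTSC read 82.3 and 76 FPKM in the control and 53.6 and 55 in kd.2 (log2 change -0.54 ± 0.06, adjusted p = 0.000665), and ASAH1, acid ceramidase, read 22.9 and 20.4 FPKM in the control and 14.3 and 15 in kd.2 (log2 change -0.56 ± 0.08, adjusted p = 0.0012), with 26.4 and 25.3 in kd.1. All 3 fell under the removal of the trend as well (-0.65, adjusted p = 9.72e-05, then -0.69, adjusted p = 6.65e-05, then -0.55, adjusted p = 0.000508). Between the lines 14 were lower and 3 higher in kd.2. In the autophagy list GABARAPL1, of the ATG8 family, fell from 25.9 and 25.9 to 12.9 and 12.3 FPKM and ATG12 from 9.27 and 9.14 to 5.65 and 5.61, but over the list 6 of 24 fell (6, 7, 2 and 4), near the background, and 2 rose (5, 5, 1 and 1). With the trend removed 6 rose and 4 fell, and the balance over all genes turned in the same way (24.9% up and 19.1% down).

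Solute carriers, a large family of membrane transporters, leaned upward. Of 182 tested 64 rose (76, 60, 24 and 28) and 34 fell (41, 32, 9 and 13), 35.2% up, and with the length trend removed 76 and 27. In kd.1 53 rose and 28 fell, and between the lines 35 were higher and 43 lower in kd.2. SLC5A3, the myo-inositol transporter, read 12.5 and 10.5 FPKM in the control and 24.1 and 22.7 in kd.2 (log2 change 1.03 ± 0.11, adjusted p = 0.000403), with 8.54 and 7.27 in kd.1. SLC35A5, of the nucleotide sugar transporter family, read 19.8 and 16 FPKM in the control and 8.59 and 8.79 in kd.2 (log2 change -1.03 ± 0.1, adjusted p = 0.000361), and SLC25A29, a mitochondrial carrier of basic amino acids, 9.29 and 9.61 FPKM in the control and 4.9 and 4.73 in kd.2 (log2 change -0.96 ± 0.09, adjusted p = 0.000224). Among glycolysis genes 2 of 18 rose (4, 4, 2 and 2) and 2 fell (6, 2, 2 and 2), against 8 and 2 with the trend removed. The hexokinase genes HK1 and HK2 rose, HK2 at 12.4 and 9.54 FPKM in the control and 18.2 and 18.8 in kd.2 (log2 change 0.76 ± 0.12, adjusted p = 0.00208), while ALDOC fell from 54.9 and 56.7 to 42.5 and 43.8 FPKM and ENO2 from 10.0 and 11.2 to 5.94 and 7.65.

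Chromatin lists departed from the background in either direction. The NuRD list was 21.4% up and 28.6% down, both above the shares of all genes. The Polycomb list was 7.69% up and 26.9% down, above them for falls alone. In the NuRD complex, a known partner of ZNF281, 3 of 14 rose (4, 4, 0 and 0) and 4 fell (5, 4, 1 and 1), against 3 and 4 with the trend removed. MTA2 read 64.2 and 59.1 FPKM in the control and 39.1 and 37.7 in kd.2 (log2 change -0.68 ± 0.07, adjusted p = 0.000276), with 58.7 and 57 in kd.1, and CHD4, its remodelling ATPase, rose from 37.6 and 32.6 to 43.6 and 44.9 FPKM, a call lost without kd.2 replicate 1 or 2 (adjusted p = 0.0737 and 0.0945). Of the other ZNF-named zinc finger genes 23 rose (55, 23, 5 and 9), 41 fell (54, 32, 8 and 8) and 217 did not pass, 8.19% up and 14.6% down, both under the background shares, and 33 rose and 40 fell with the trend removed. ZNF488 read 1.68 and 2.01 FPKM in the control and 0.48 and 0.56 in kd.2 (log2 change -1.65 ± 0.15, adjusted p = 0.000234) and ZNF267 3.07 and 2.52 FPKM in the control and 6.0 and 5.92 in kd.2 (log2 change 1.07 ± 0.11, adjusted p = 0.000386). Of 26 Polycomb genes 2 rose (6, 3, 0 and 0) and 7 fell (8, 8, 2 and 2), against 3 and 7 with the trend removed.

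**Figure D5:**
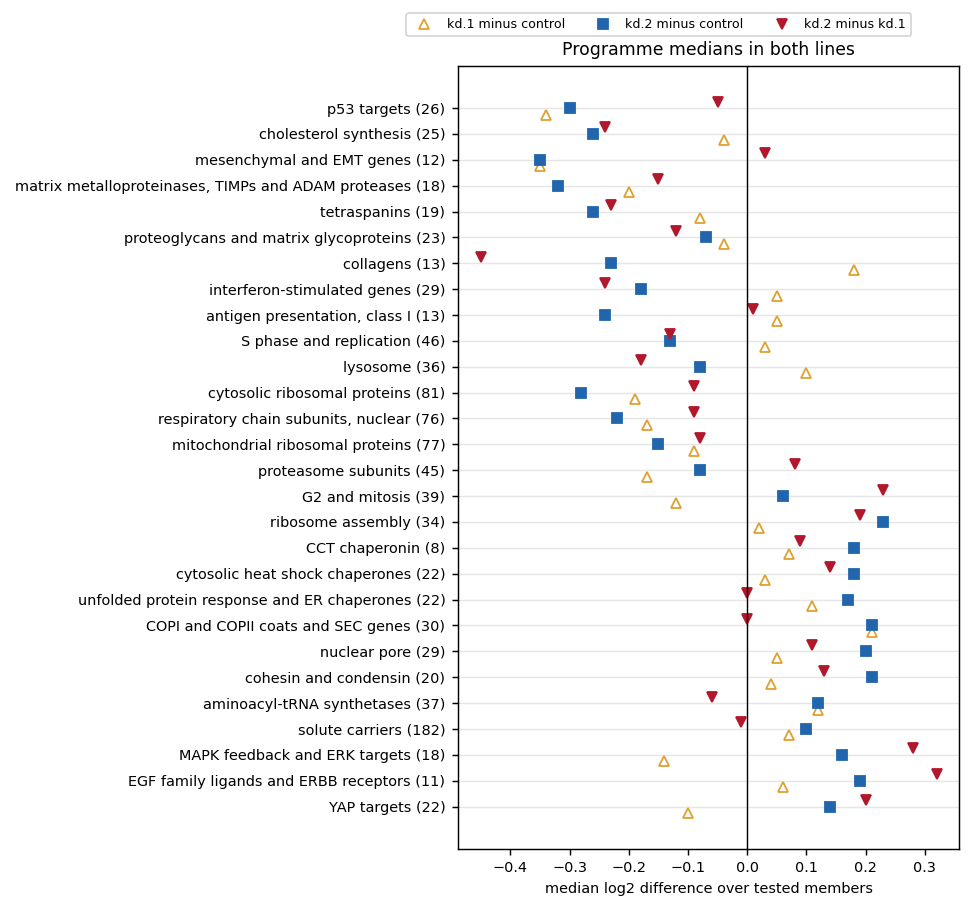
Median log2 difference (horizontal axis) over tested members of 28 programmes (number tested in brackets) for kd.2 minus control (squares), kd.1 minus control (triangles) and kd.2 minus kd.1 (inverted triangles). Squares and triangles share the control libraries. Inverted triangles lie at -0.45 for the collagens and -0.24 for cholesterol synthesis, at -0.05 for p53 targets, and at 0.28 for ERK targets and 0.23 for G2 and mitosis genes.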

How the data were processed

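RNA of 3 HLE lines (control shRNA, kd.1 and kd.2, 2 libraries each) was analysed from a table deposited by the authors. Its values have 2 decimals and sum to 512672.6 to 575886.9 per library. They were taken to be FPKM from the values, since no label or header of the deposited table names the unit. Tools listed in the submitters' processing notes are RSEM 1.2.12, HISAT2 2.0.4 and Bowtie2 2.2.5, without saying what each did. Read depth is unknown, so the number of libraries limits the precision and no counting interval can be given.

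Of 21372 features, 1869 unnamed transcripts were left out. Values were taken as log2(FPKM + 0.1) for genes that reached 1 FPKM in no fewer than 2 libraries and fitted with limma 3.58.1 (R 4.3.3; 1 mean per group, all 6 libraries, trend and robust, 3 residual degrees of freedom). The script was tested on simulated data. Gene IDs matched RefSeq for 19164 genes, and 10740 of the tested genes (99%) had a transcript length.

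Named genes are ZNF281, ZNF148 and ANXA10, and the 12 called genes with the largest log2 change in each direction (mean of at least 1 FPKM, groups not overlapping). The 5 called genes with the largest FPKM difference in each direction were added under the same conditions. So were up to 4 called members of each list with the smallest p, where the groups did not overlap. VIM, EGFR, DUSP6 and SPRY2 were chosen after their values were seen. A few genes are not reported here. The members and the 89 lists were chosen with earlier results of these data known, and no list was given a test. Alternatives were the pseudocount, the filter, the scaling, the libraries fitted, the moderation, a replicate block, each library left out, and removal of the length and GC trend.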

Additional observations from a re-analysis of the deposited data

Results flagged for a closer look

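Against the same 2 control libraries, 26 named genes were called in opposite directions in kd.2 and kd.1 and were also called between the lines. They are given again here for that reason. The difference between the lines is kd.2 minus kd.1 in log2 units and does not use the control levels, though its SE comes from the fit over all 6 libraries. Being past the threshold (limma, adjusted p from 5.14e-06 to 0.000568) was a condition of the choice, so it is no added support.

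A first set fell in kd.2 and rose in kd.1. Of the largest, SEPP1 differed by -3.51, CDKN1C by -3.38, the cytokine gene IL1B by -2.60 and RARRES1 by -2.08. IL1B passed the filter only through the kd.1 pair, so its difference is no independent support. The claudin gene CLDN7 differed by -1.96, the tetraspanin genes TSPAN8, CD82 and TSPAN12 by -1.52, -1.22 and -1.18, and decorin, DCN, by -1.26. The potassium channel gene KCNK15 differed by -1.46, the keratin gene KRT80 by -1.44 and the homeobox gene HOXB13 by -1.12. The immunoproteasome gene PSMB8 differed by -0.87, the lysosomal gene ASAH1 by -0.82, MAGED2 by -0.80, the export pump gene ABCC3 by -0.77 and the tubulin gene TUBB6 by -0.50. With the length and GC trend removed the kd.2 calls against control of TUBB6 (-0.05, adjusted p = 0.373) and MAGED2 (-0.14, adjusted p = 0.136) were lost. Without kd.2 replicate 1 or 2 those of TUBB6 (adjusted p = 0.137 and 0.0969), MAGED2 (0.137 and 0.0652) and KCNK15 (0.123 and 0.0828) were lost, and without kd.2 replicate 1 those of ABCC3 (0.0668) and HOXB13 (0.0966).

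The others rose in kd.2 and fell in kd.1. PLAT differed by 2.99, the growth factor genes TGFB3 and TGFB1 by 1.60 and 0.75, the inositol transporter gene SLC5A3 by 1.56 and cyclin D1, CCND1, by 1.45. The protocadherin gene PCDH1 differed by 1.02, the hyaluronan receptor gene CD44 by 0.86, F3 by 0.85 and the immediate early gene IER5 by 0.64. The kd.2 call of IER5 was lost without kd.2 replicate 1 (adjusted p = 0.0678) and that of PCDH1 without kd.2 replicate 2 (0.178). Groups of 2 libraries are too small for a test of single outlying libraries.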

How the results depend on the processing

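The number of genes called moved most with the libraries. With 1 library left out, the risen genes ranged from 466 to 2847 and the fallen from 816 to 3328, where the single library left in a group is taken to vary like the other groups. With a common FPKM sum 2122 rose and 1345 fell. With the length and GC trend removed 2671 rose and 2056 fell, and with control replicate 1 left out as well 3023 and 2488, or with control replicate 2 left out 2456 and 1787. The cause was not tested. The other settings stayed within 1.5 times the main counts in both directions: 1282 to 2044 risen and 1800 to 2402 fallen over the other filters, pseudocounts of 0.01 and 1 FPKM, median ratio scaling, no trend, and the 4 libraries alone. The replicate block, fitted although the numbers do not pair the samples (correlations of same-numbered deviations of -0.0874, 0.022 and 0.183), gave 1584 and 2307. Of the 316 named genes, 184 kept their call in every alternative that gave them a value. EFNA1, an ephrin gene, reversed with the trend removed and without control replicate 1, to 0.023 (adjusted p = 0.773). The depth behind the values is unknown, and fold changes of genes below about 1 FPKM depend on the pseudocount.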

Other observations

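Single members changed in further gene groups, whose counts are given beside the 15.7% of all genes that rose and 22.2% that fell, with the counts for 1 library left out in brackets in the order used above. In the Notch and Hedgehog list 3 of 13 members rose (4, 1, 0 and 0) and 4 fell (5, 4, 3 and 3), 23.1% and 30.8%, against 4 and 4 with the length and GC trend removed. The Notch target gene HES1 fell from 9.32 and 10.8 to 6.41 and 6.1 FPKM, LFNG, which glycosylates Notch, from 4.89 and 4.95 to 2.52 and 2.97, and the coactivator gene MAML1 from 8.53 and 7.48 to 5.19 and 5.07. Of 16 tested HOX genes, which specify position along the body axis, 5 fell (11, 3, 2 and 2) and 1 rose (1, 0, 0 and 0), 31.2% and 6.25%, against 3 and 1 with the trend removed (median -0.31 and -0.14). HOXC10 fell from 21.5 and 21.7 to 13.1 and 12.5 FPKM and HOXA9 from 4.31 and 4.81 to 3.47 and 3.07, a call lost without kd.2 replicate 2 (limma, adjusted p = 0.1). Of 44 DNA repair genes 10 fell (13, 13, 4 and 3) and 5 rose (11, 2, 0 and 0), 22.7% and 11.4%, against 9 and 6 with the trend removed. PARP1, which senses DNA breaks, fell from 98 and 85.9 to 59.1 and 60.8 FPKM, OGG1, which removes oxidised guanine, from 13.5 and 15.2 to 9.1 and 9.65, and the ligase gene LIG1 from 27.3 and 26.2 to 18.6 and 19.9.

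Of 80 spliceosome genes 15 fell (28, 16, 4 and 3) and 7 rose (17, 8, 0 and 0), 18.8% and 8.75%, against 17 and 22 with the trend removed. LSM4, of the U6 particle, fell from 141 and 158 to 81.1 and 80.8 FPKM. Of 45 RAB small GTPases 8 rose (14, 6, 5 and 5) and 10 fell (13, 11, 5 and 5), 17.8% and 22.2%, against 14 and 14 with the trend removed. RAB12 rose from 10.8 and 10.1 to 16.7 and 16.8 FPKM and RAB8B fell from 9.22 and 7.97 to 4.31 and 4.26. In the WNT list the destruction complex gene APC rose from 5.25 and 3.49 to 6.94 and 7.46 FPKM and the receptor gene FZD2 fell from 5.88 and 6.13 to 3.77 and 4.03, and 2 of 23 rose (5, 2, 0 and 0) and 3 fell (3, 9, 1 and 2), 8.7% and 13%, against 2 and 5 with the trend removed. The APC call did not hold without kd.2 replicate 1 or 2 (limma, adjusted p = 0.0558 and 0.0736). Of 20 hypoxia response genes 6 rose (7, 6, 4 and 4) and 5 fell (5, 5, 1 and 2), 30% and 25%, against 7 and 5 with the trend removed. STC2, a secreted glycoprotein, rose from 1.49 and 1.43 to 2.72 and 2.92 FPKM and ANGPTL4, an inhibitor of lipoprotein lipase, fell from 5.3 and 5.29 to 2.49 and 2.58.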
